A study of Mus musculus with 16 samples.

Results

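The genes described here encode the proteins of the cytosolic ribosome in the optic nerve head of C57BL/6 mice. They are the rows of the deposited count table whose symbol is Rpl or Rps followed by a number and, where present, the letter a, x or l, together with Rpsa, Rplp0, Rplp1 and Rplp2. There are 81 of them among 23337 genes, 32 of the small (40S) and 49 of the large (60S) subunit. RNA-sequencing was carried out on the unmyelinated part of the right optic nerve in 4 groups of 4 libraries each. Young naïve mice were 13 weeks old, aged naïve mice were 40 weeks old, and both groups received no injection. The saline and the microbead groups were examined at 13 weeks of age, 4 weeks after sterile saline or polystyrene beads had been injected into the right anterior chamber; the beads block aqueous outflow and raise the intraocular pressure. All mice were wild type, and each library pooled the nerves of 4 mice, 2 male and 2 female, so that a library is a pool and not an animal.

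The ribosome is built from ribosomal RNA and a fixed set of proteins, most of which are present once in each particle. The small subunit reads the messenger RNA and the large subunit joins the amino acids. In mammals most of these proteins are encoded by 1 gene with introns, while the genome also carries many processed pseudogenes, which are copies of the mature messenger RNA without introns. Messenger RNAs of ribosomal proteins typically start with a stretch of pyrimidines, the TOP motif, through which mTORC1 and LARP1 control their translation. A few members have a paralog of restricted or different use, such as Rpl3l of striated muscle or Rpl10l of the testis.

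The authors left 2 libraries out of their comparison tables as outliers of a principal component analysis, aged replicate 2 and saline replicate 4. The other 14 libraries are the main set here, and every comparison was repeated with all 16. Library totals lay between 6213789 and 10726122 counts. The levels of aged replicate 2 and saline replicate 4 went against their groups in Lars2 and in Rn45s, the ribosomal RNA precursor. Lars2 encodes a mitochondrial leucyl-tRNA synthetase, and whether the reads counted in its row come from that messenger RNA was not tested. Lars2 stood at 8559 to 9305 CPM in the other 3 aged libraries and at 677 CPM in aged replicate 2, and at 90.4 to 131 CPM in the other 3 saline libraries and 5556 CPM in saline replicate 4. For Rn45s aged replicate 2 had 3031 CPM and saline replicate 4 had 2656 CPM, each outside the range of the other libraries of its group. CPM are counts per 1000000 of the library total, scaled by TMM over the 16 libraries. Astrocyte markers were present in every library, with a sum of 7152 to 17160 CPM over 10 genes, and all 10 were detected. Of 10 listed markers of blood 8 were among the counted genes, with a sum of 13.5 to 33.0 CPM. Among them 4 hemoglobin genes were at 0 in all libraries. Whether their RNA was absent or their reads were not assigned was not tested.

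Reads of the 81 genes were scarce. Together they held 0.187% to 0.367% of the counts of a library, and 80 of them had at least 1 count. Rpl10l, the retrogene paralog of Rpl10, had 0 counts in 16 libraries with 138701965 counts in all, which allows a level of up to 0.0216 CPM by a floor of 3 counts. Counts were sufficient for testing in 60 members in the 14-library fit, 25 of the small and 35 of the large subunit, and in 59 members with all 16 libraries. The other 21 had too few counts, and nothing is known of their differences. The genes with the most reads were Rps3, Rpl4, Rps14, Rpl8 and Rps9 among others, and the 6 most abundant held 43.2% to 47.4% of all member counts of a library.

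Levels per length differed widely between members, although the proteins are used in nearly equal numbers. Per kb of exon, Rps14, a protein of the platform of the small subunit, was highest at 263 CPM per kb on average over the 16 libraries, and Rplp1 had 202, Rps9 197 and Rpl8 182. In total 10 members were above 100 CPM per kb and 15 were below 1 CPM per kb. At the lower end of the members with a mean count of at least 50, Rpl5 stood at 4.22 and Rps15a at 2.32 CPM per kb. Neighbours in this order mostly overlapped in their ranges over libraries. Rps9 lay between 143 and 386 CPM per kb and Rplp1 between 158 and 371, whereas Rps9 and Rpl5, with 2.68 to 5.82, were far apart in every library.

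**Figure D1:**
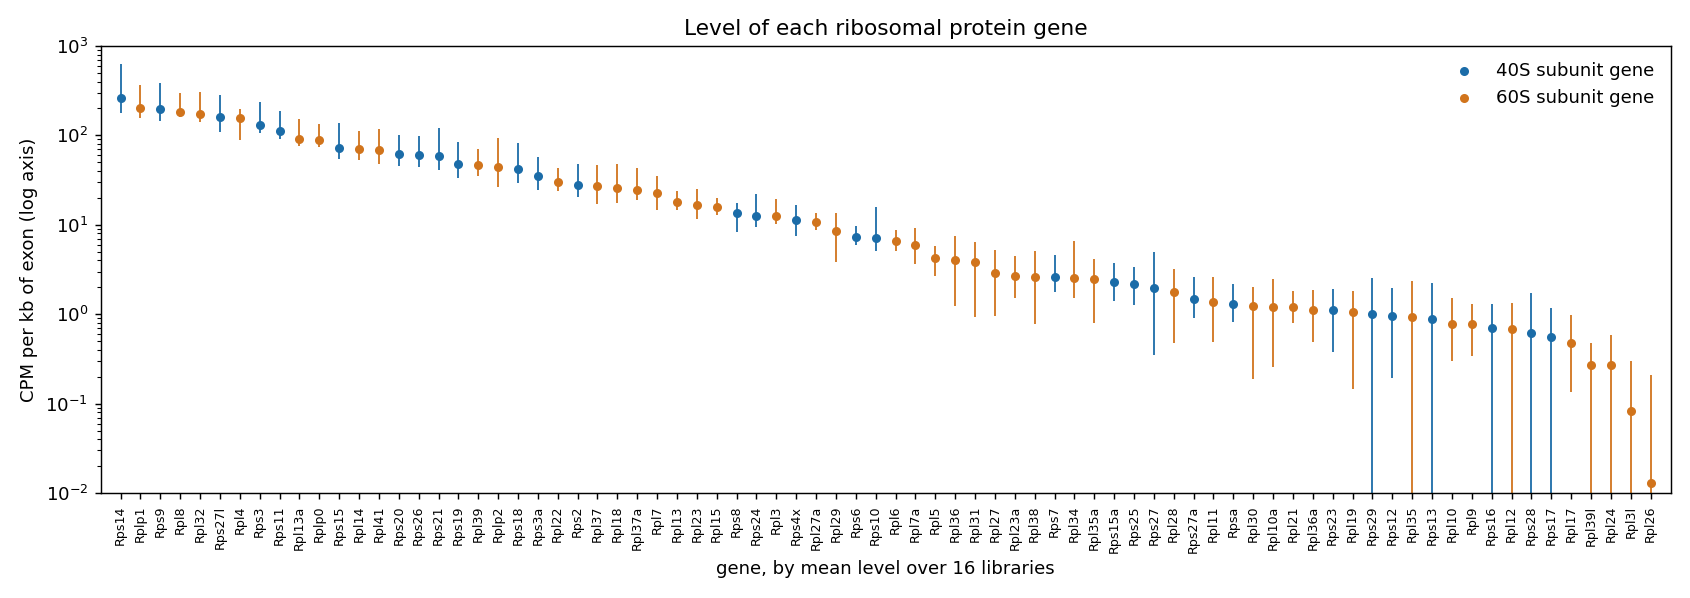
Mean level per kb of exon of 78 ribosomal protein genes over 16 libraries (log axis), with lines from the lowest to the highest library, small subunit genes in blue and large subunit genes in orange. Of the 80 members with a count 78 are drawn, and lines that reach the bottom of the plot belong to genes with 0 counts in at least 1 library. Levels fall from 263 CPM per kb for Rps14 to 0.0131 for Rpl26.

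Levels of members with related or well-known roles are given next. The stalk proteins, which recruit the GTPases of translation to the large subunit, were spread over the range: Rplp0 had 88.9, Rplp1 202 and Rplp2 44.6 CPM per kb. Rps6, the substrate of S6 kinase, had 7.22 CPM per kb. Rpl5 and Rpl11, which bind Mdm2 as a complex with 5S RNA when ribosome assembly is disturbed, had 4.22 and 1.38. Rpsa, the laminin-binding protein of the small subunit, had 1.32, and Rps27a, made as a fusion with ubiquitin, had 1.48. For comparison, the elongation factors Eef1a1 and Eef2 stood at 189.6 and 109.8 CPM per kb. Gapdh stood at 1.06 and Tpt1, a highly translated TOP messenger RNA, at 7.83. The share of 50-base stretches found at 1 locus only was 43.5% in Eef1a1, 92.1% in Eef2, 21.7% in Gapdh and 58.0% in Tpt1.

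Members shared much of their sequence with other annotated genes. In the GENCODE M21 transcripts of GRCm38, the build of the deposited coordinates (mm10), the median member had 57.6% of its 50-base stretches at 1 locus only, and 67 of 81 members were below 75%. Among the 13157 tested genes that could be matched, the median was 100% and 3.09% were below 75%. A 50-base stretch of 78 members also occurred in at least 1 other gene, the median member shared one with 9 others, and Rpl7a with 120. Of the 1264 such pairs, 1093 were with pseudogenes. The sources used here do not say how reads with several matches were counted, and 15 of these pseudogenes were rows of the table, with 0.000965% to 0.00295% of the counts of a library.

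Levels were higher where fewer other genes shared sequence. Leaving out the paralogs Rpl3l, Rpl10l and Rpl39l, the 10 members that shared with 0 to 2 other genes had a median of 144 CPM per kb, with a range from 7.17 to 263. The 11 members with 3 to 5 had a median of 60.2, the 20 with 6 to 10 a median of 2.37, the 22 with 11 to 20 a median of 3.46, and the 15 with 21 or more a median of 3.87. Across these 78 genes Spearman's coefficient between the level per kb and the number of sharing genes was -0.461 and Pearson's r on log scales was -0.463. Spearman's coefficient with the unique share was 0.440 at 50 bases, 0.342 at 36 and 0.561 at 100, and with exon length 0.0960. These are descriptions across genes that share libraries and pseudogene families, and a part of sequence sharing in the levels was not tested. By the number of sharing genes, exceptions were plain in both directions. Rps20 shared with 31 genes, 4 of them pseudogenes, and had 61.3 CPM per kb, while Rpl28 shared with 4 and had 1.78. By the unique share at 50 bases Rps20 was high, at 92.6% against 65.5% for Rpl28.

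**Figure D2:**
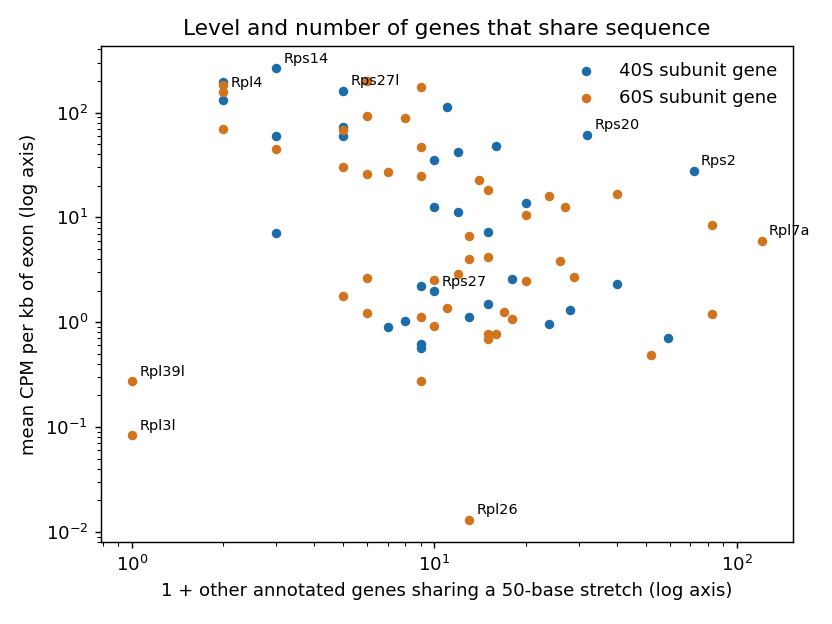
Mean level per kb of exon (log axis) against 1 plus the number of other annotated genes that share at least 1 stretch of 50 bases (log axis), for 78 of the 80 ribosomal protein genes with a count, the paralogs Rpl3l and Rpl39l included. Rps14 shares with 2 other genes and stands at 263 CPM per kb, Rpl7a shares with 120 and stands at 5.98, and the paralogs Rpl3l and Rpl39l are low without sharing.

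To show what such sharing looks like, the first 60 coding bases lying in 1 exon are given for Rpl10, a protein of the large subunit near the P site. The window (GRCm38, chrX:74271802-74271861, plus strand, exon 4) occurs letter for letter in 4 other genes, 3 of them pseudogenes.
Rpl10: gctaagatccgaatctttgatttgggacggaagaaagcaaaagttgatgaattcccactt
Rpl10 had a mean count of 5.38, and 7.87% of its 50-base stretches were at 1 locus.

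The pair of Rps27 and Rps27l showed the paralog above the parent gene. Rps27 encodes a small subunit protein with a zinc finger, and Rps27l a close paralog that is a target of p53. Rps27l had 74.7 CPM on average, between 51.1 and 131, and Rps27 had 1.13 CPM, between 0.201 and 2.83, so that the ranges did not overlap. Of 252 coding bases 192 (76.2%) were identical. The first coding window of 60 bases that lies in 1 exon of both genes is printed with the 19 differing bases in capitals, Rps27 from the minus strand of GRCm38, chr3:90213242-90213301, and Rps27l from the plus strand, chr9:66946831-66946890, both exon 2.
Rps27: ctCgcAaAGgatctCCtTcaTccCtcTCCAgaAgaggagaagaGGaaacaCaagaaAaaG
Rps27l: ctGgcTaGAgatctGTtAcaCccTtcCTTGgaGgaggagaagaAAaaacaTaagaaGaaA
The Rps27 window is found unaltered in 1 other gene and the Rps27l window in none. Only 1.35% of the 50-base stretches of Rps27 were at 1 locus against 82.5% of Rps27l, and exons of Rps27 were also partly covered by those of another row of the table, Gm9846. The other paralogs were near 0: Rpl3l had 0.133 CPM against 17.1 of Rpl3, Rpl39l had 0.221 against 18.5 of Rpl39, and Rpl10 itself had only 0.620. Rps4x had 9.87 CPM, and the row Rps4y2, which the current annotation names Rps4l and lists as a transcribed pseudogene, had 49.9.

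Some members also overlapped other rows of the annotation, at low and at high levels. Exons of 11 members overlapped those of another row, by 95.8% of the bases in Rpl26, 76.0% in Rpl30, 67.2% in Rpl34 and 47.7% in Rpl5, but also by 8.33% in Rpl32, which had 175 CPM per kb. Rpl26 had 1 count in 16 libraries, and Gm15772, the row that covers it, had 0. Rpl30 had a mean count of 6.75 and Gm12191, which covers it, had 0. The sources used here do not say whether reads in overlapping exons were assigned to a row.

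The pyrimidine start was more frequent in members than in other genes. A promoter sequence was matched for 61 of 81 members in RefSeq (GRCm38.p6), where the first listed start was used. A C at the start base followed by 4 bases that are each C or T, on the strand of the gene, was found in 12 members (19.7%) and in 673 of all 27025 genes (2.49%). Starting within 5 bases on either side of the start base it was found in 27 members (44.3%) and in 4989 genes (18.5%). The 30-base windows from 10 bases before to 19 after the start base are shown for Rps27l, Rpl14 and Rps9, the members with the smallest p-values with microbeads, and for Rpl4, Rpl19 and Rpl37, which passed the call rule. Capitals mark the unbroken run of C and T through the start base or, where there is none, the start base alone. The windows lie on the plus strand at chr9:120571507-120571536 (Rpl14), chr7:3704031-3704060 (Rps9), chr9:66946076-66946105 (Rps27l), chr9:64173377-64173406 (Rpl4), chr11:98026700-98026729 (Rpl19) and chr15:5116603-5116632 (Rpl37).
Rps27l: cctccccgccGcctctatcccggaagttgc
Rpl14: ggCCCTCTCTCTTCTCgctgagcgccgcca
Rps9: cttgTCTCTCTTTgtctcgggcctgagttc
Rpl4: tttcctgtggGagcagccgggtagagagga
Rpl19: aaacgccctcActgcgcatgtgcgccgcgg
Rpl37: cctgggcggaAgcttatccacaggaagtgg
The run was 14 bases in Rpl14 and 9 in Rps9, and the listed starts of Rps27l, Rpl4, Rpl19 and Rpl37 did not lie in one. Of the genes shown only Rpl14 had the C and 4 pyrimidines at the start base itself. Within 5 bases of it Rpl14, Rps9, Rps27l and Rpl19 had them, and Rpl4 and Rpl37 did not. Rpl29, which also passed the call rule, had no matched promoter sequence. A listed start can be some bases away from the one used in this tissue.

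With age, 3 of the 60 tested members fell and none rose. The fall was largest in reads for Rpl4, a protein that lines the exit tunnel of the large subunit, at 269 ± 7.57 CPM in young (SD, n = 4) and 139 ± 11.1 CPM in aged libraries (n = 3). Rpl29, a small basic protein at the surface of the large subunit, fell from 7.74 ± 0.703 to 3.81 ± 1.06 CPM, and Rpl19, which takes part in a bridge between the subunits, fell from 1.21 ± 0.241 to 0.341 ± 0.251 CPM. Most members differed little, and the median log2 fold change was -0.20 over members and 0.02 over all 14541 genes. A gene was called when the edgeR quasi-likelihood test gave p under 0.01, its Benjamini-Hochberg value over all tested genes was under 0.05, and the change was 1.5-fold or more. At this rule 11.4% of all genes tested were called lower and 15.1% higher with age. The members called lower were 5.00% of those tested and those called higher 0, which is below the share of all genes in both directions.

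Rpl4 was at 266, 273, 260 and 277 CPM in young libraries 1 to 4 and at 148, 141 and 127 CPM in aged libraries 1, 3 and 4. Aged replicate 2 had 204 CPM, so that the groups did not overlap with or without it. The log2 fold change was -0.96 ± 0.0809 (SE) with an adjusted p of 8.78e-08 in edgeR, and -0.80 ± 0.129 with all 16 libraries (adjusted p = 0.000286). The saline libraries had 273, 245, 234 and 209 CPM and the microbead libraries 231, 207, 227 and 225 CPM. Every young, saline and microbead library was above every aged library. Relative to the aged group the microbead group was higher by 0.68 ± 0.0803 on the log2 scale (adjusted p = 3.30e-05, edgeR), which was the only call among members in that comparison. With all 16 libraries it was 0.52 (adjusted p = 0.0109) and below the fold minimum, while Rps14 (-0.73), Rps9 (-0.66) and Rps21 (-0.67) were then called lower in microbead libraries (4.2% of all genes tested lower, 5.8% higher). In the 14-library fit 6.07% of all genes tested were called higher and 4.78% lower. The gene lies on chromosome 9 of mm10, from 64173387 to 64178562, and 83.5% of its 50-base stretches were at 1 locus. In a bulk sample, fewer cells of a type and less RNA per cell cannot be told apart.

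Rpl29 had 72, 61, 75 and 62 counts in the young and 41, 31 and 19 in the 3 aged libraries, and 57 in aged replicate 2. The kept groups did not overlap, and with all 16 libraries the log2 fold change moved from -1.01 ± 0.228 (adjusted p = 0.00133, edgeR) to -0.76 with an adjusted p of 0.0360, outside the call rule. Rpl29 shares 50-base stretches with 82 other genes. Rpl19 rested on 12, 8, 10 and 12 counts against 1, 5 and 2 (log2 fold change -1.78 ± 0.543, adjusted p = 0.0111, edgeR), had 8 in aged replicate 2 and did not have enough counts to be tested with all 16. Without aged replicate 1 its log2 fold change was -1.36 with an adjusted p of 0.0666, and the call was also lost without young replicate 4 or aged replicate 4.

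Below the fold minimum, members went both ways with age. Adjusted p was under 0.05 without the fold minimum in Rps14, Rps3 and Rps2, which were higher, and in Rpl14, Rpl18, Rps27l, Rps15, Rpl8 and Rpl41, which were lower. Rps14 was at 129, 134, 143 and 124 CPM in young and at 188, 169 and 178 CPM in aged libraries, with no overlap, and reached 373 CPM in aged replicate 2. Its log2 fold change was 0.43 ± 0.111 (adjusted p = 0.00369, edgeR), and with all 16 libraries it was 0.78 and called (adjusted p = 0.00783). Rps3, a protein at the mRNA entry of the small subunit, had 222 to 233 CPM in young and 270 to 287 CPM in aged libraries. Rps2 had 20.5 to 27.1 against 30.4 to 33.2 CPM. In the other direction Rpl14 had 72.1 to 76.9 CPM in young and 49.3 to 58.0 in aged libraries (log2 -0.46 ± 0.103, adjusted p = 0.00133), Rps27l had 76.2 to 87.2 against 51.1 to 69.1, and Rpl18 had 18.96 to 21.35 against 13.08 to 15.04. In all of these the kept groups did not overlap, but aged replicate 2 was at 104 CPM for Rpl14, 131 for Rps27l and 32.5 for Rpl18, above every young library. With the length trend removed, none of the lower ones passed the test: log2 fold changes were -0.10 for Rpl14 (adjusted p = 0.393), -0.14 for Rps27l (0.229), -0.20 for Rpl18 (0.255), -0.07 for Rps15 (0.585), -0.07 for Rpl41 (0.655) and 0.12 for Rpl8 (0.214).

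**Figure D3:**
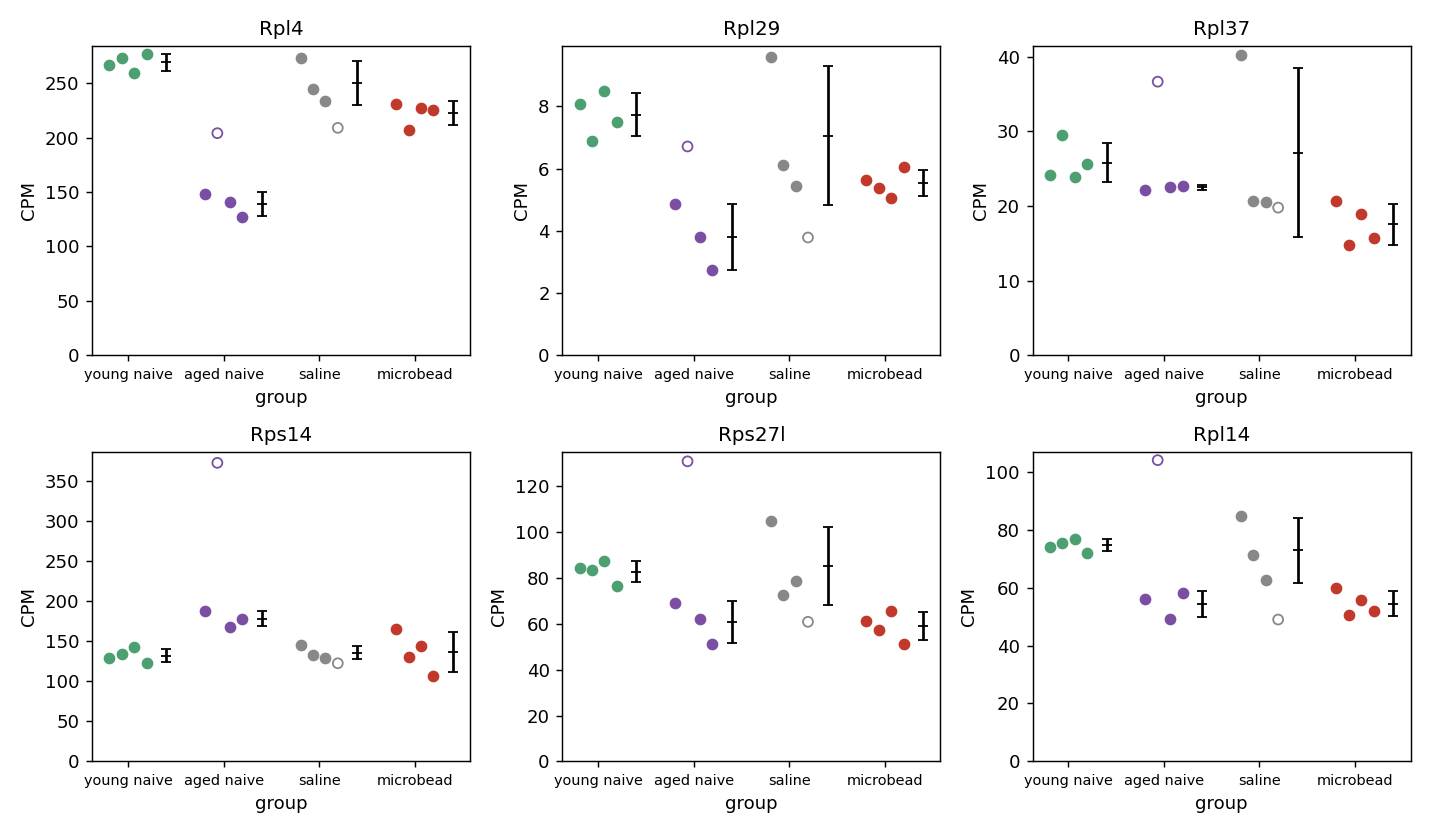
CPM of 6 ribosomal protein genes in each library by group, with filled points for the 14 kept libraries, open points for aged replicate 2 and saline replicate 4, and bars for the mean ± SD of the kept libraries. Rpl4 is lower in all aged libraries than in any other, whereas for Rps14, Rps27l and Rpl14 the open aged point lies above every other library.

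The counts of small subunit genes relative to large subunit genes were higher in the aged libraries, a measure that no scaling of the libraries can alter. The ratio was 0.860 to 0.893 in young (mean 0.876 ± 0.0146, n = 4) and 1.08 to 1.10 in aged libraries (1.09 ± 0.0112, n = 3), with 1.18 in aged replicate 2. It was 0.888 to 0.905 in saline and 0.840 to 0.946 in microbead libraries. No aged library overlapped with any other group. Without Rps14 and Rpl4 the ratio was 0.971 to 0.985 in young and 1.05 to 1.07 in aged libraries. Without the 6 most abundant members it was 0.536 to 0.560 in young and 0.499 to 0.529 in the 3 kept aged libraries, the opposite order, but 0.577 in aged replicate 2, above every young library. The higher ratio of the kept aged libraries therefore rests on a few abundant genes.

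**Figure D4:**
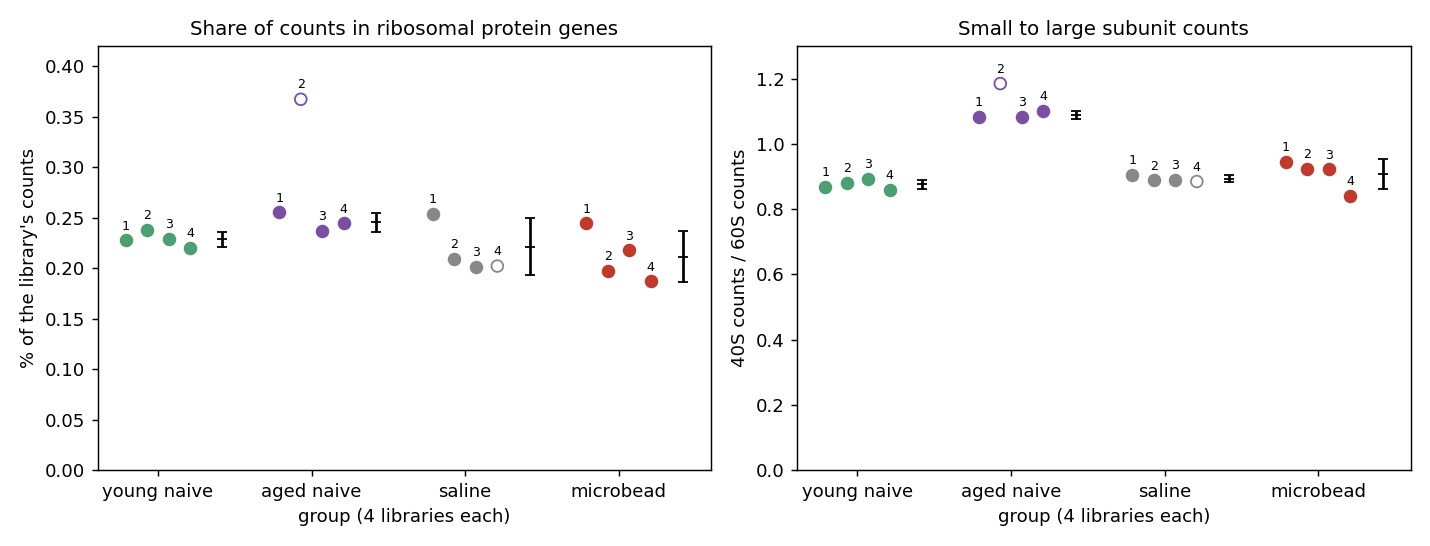
Share of each library's counts in ribosomal protein genes (left, percent) and ratio of small to large subunit counts (right) by group and replicate number, with open points for the 2 libraries left out by the authors and bars for the mean ± SD of the kept libraries. Aged replicate 2 stands at 0.367% against 0.237% to 0.255% in the other aged libraries, and all aged libraries lie above 1.08 in the ratio.

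Aged replicate 2 set the members apart from the rest of its group. It held 0.367% of its counts in members (95% Wilson interval 0.363% to 0.371%, counting error only), against 0.255%, 0.237% and 0.244% in the other aged libraries. Of the 43 members with a mean count of at least 50, 42 were above the mean of the other aged libraries, by a median of 0.749 on the log2 scale. It was the highest of the 16 libraries in 43 of 59 tested members (72.9%), against 18.8% of all genes. With all 16 libraries the median log2 fold change of the members with age was 0.08 instead of -0.20, 1 member was called higher (Rps14; 11.3% of all genes tested) and 1 lower (Rpl4; 8.41%). The direction of the median therefore depended on this library. Saline replicate 4 was below the mean of the other saline libraries in all but 2 of the 43, by a median log2 difference of -0.255.

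**Figure D5:**
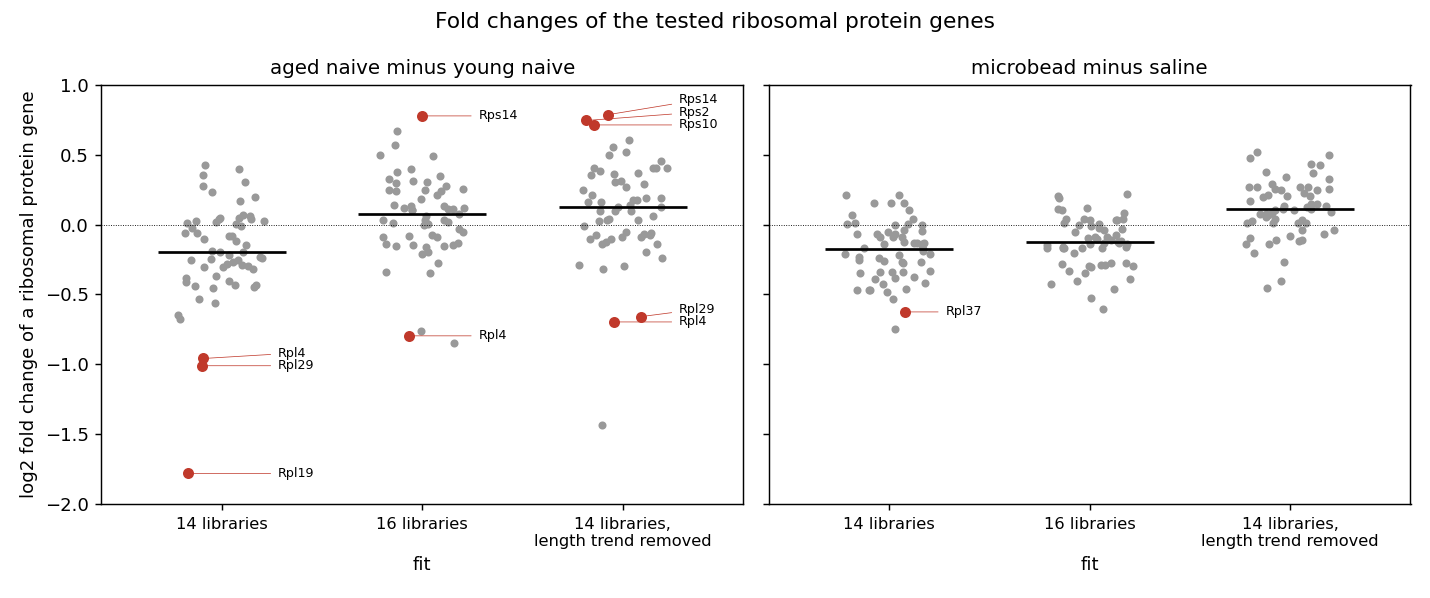
Log2 fold changes of the tested ribosomal protein genes with age (left) and with microbeads (right) in 3 fits, with 1 point per gene, called genes in red and a line at the median. The median for age is -0.20 with 14 libraries, 0.08 with 16 and 0.12 after removal of the length trend, and for microbeads -0.17, -0.12 and 0.12.

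The members are short genes, and this coincided with their direction. Their median exon length was 792 bases among those tested, against 2867 bases for all tested genes. When a smooth dependence on exon length was taken out of every library, the median log2 fold change of members turned from -0.20 to 0.12 with age and from -0.17 to 0.12 with microbeads. Rps14 (0.79), Rps2 (0.75) and Rps10 (0.71) were then called higher with age (10.1% of all genes tested), and Rpl4 (-0.70) and Rpl29 (-0.66) were still called lower (10.5% of all genes tested). With microbeads edgeR then called 0 members, where 1.97% of all genes tested were called lower and 4.61% higher. Below the fold minimum, Rps2 (0.48, adjusted p = 0.00768), Rpl27a (0.52, 0.0139) and Rps14 (0.34, 0.0186) were then higher with microbeads in edgeR. So were Rpl8 (0.26, 0.0274) and Rpl13a (0.27, 0.0327), and no member was lower at an adjusted p under 0.05. Other short genes of the cell had medians of the same sign as the members before the removal. The median log2 fold change with age was -0.43 for 74 mitochondrial ribosomal protein genes and -0.39 for 81 respiratory chain genes, and after it -0.13 and -0.11. The RNA concentrations that the study lists were higher in every aged than in every young pool. They were also higher in every microbead than in every kept saline pool, while saline replicate 4 lay within the microbead range. Group and RNA concentration therefore cannot be told apart in these comparisons. The part of RNA concentration, RNA quality or library preparation in this trend was not tested.

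Microbead injection was compared with saline injection to see the effect of raised pressure apart from the injection itself. The median log2 fold change of the members was -0.17, and -0.03 without saline replicate 1, and 1 of 60 was called, Rpl37, a zinc-binding protein of the large subunit that contacts ribosomal RNA. Of all genes tested 3.06% were called lower and 9.39% higher, and 1.67% and 0 of the members. Rpl37 had 40.2, 20.6 and 20.5 CPM in saline libraries 1 to 3 and 20.6, 14.81, 18.96 and 15.73 CPM in the microbead libraries. The groups overlapped, since microbead replicate 1 was as high as saline replicates 2 and 3, and saline replicate 1 alone was far above them. The log2 fold change was -0.62 ± 0.194 (adjusted p = 0.0198, edgeR), and without saline replicate 1 it was -0.23 with an adjusted p of 0.225, so the call rests on that library. It was also lost without microbead replicate 2 or 4, and with all 16 libraries (adjusted p = 0.223).

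The members with the smallest p-values stayed below the fold minimum. Rps27l had 105, 72.4 and 78.6 CPM in saline and 61.4, 57.4, 65.4 and 51.4 CPM in microbead libraries, without overlap (log2 -0.53 ± 0.125, adjusted p = 0.00338, edgeR). Saline replicate 4 had 60.8 CPM, within the range of the microbead libraries. Rpl14 had 84.8, 71.3 and 62.5 CPM against 59.9, 50.7, 55.7 and 51.8 CPM (log2 -0.42 ± 0.101, adjusted p = 0.00402), and 49.0 CPM in saline replicate 4. Rps9, a small subunit protein whose yeast counterpart affects decoding accuracy, had 150, 136 and 129 against 125, 104, 108 and 101 CPM (log2 -0.34 ± 0.0859, adjusted p = 0.00549). With the length trend removed the log2 fold changes were -0.20 for Rps27l (adjusted p = 0.124), -0.08 for Rpl14 (adjusted p = 0.595) and 0.01 for Rps9 (adjusted p = 0.957). Before that removal, among members with a mean count of at least 50, Rps3, Rps2 and Rpl27a departed most upward from the members' median. Their log2 fold changes were 0.11, 0.15 and 0.21, with adjusted p of 0.378, 0.378 and 0.275 in edgeR. Rps4x departed downward with -0.47 (adjusted p = 0.0701). The stalk genes had log2 fold changes of -0.21 (Rplp0), -0.19 (Rplp1) and -0.43 (Rplp2, adjusted p = 0.044, edgeR), Rps6 had 0.01 and Rpl5 -0.05. Rps7 had -0.75 (adjusted p = 0.0463, edgeR), beyond the fold minimum, but its p of 0.0155 was not under 0.01. With the length trend removed, Rplp2 had -0.12 (adjusted p = 0.617) and Rps7 -0.41 (adjusted p = 0.338). With all 16 libraries edgeR called 0 members, 3 were lower at an unadjusted p under 0.05 (7.87% of all genes lower, 11.4% higher), and no gene of the 14417 tested was called. DESeq2, run on the 14 libraries, called 1.

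Between saline-injected and young naïve nerves no member passed the test. In edgeR 0 of 60 were called, 0 were at an unadjusted p under 0.05 (6.43% of all genes higher, 5.56% lower), DESeq2 called 0, and the median log2 fold change was -0.04, with 0.00688% of all genes called lower and 0 higher. Between microbead and young naïve nerves edgeR and DESeq2 called 0 members (2.15% of all genes lower, 7.63% higher in edgeR). There 17 members were lower at an unadjusted p under 0.05 (28.3% of those tested, against 18.3% of all genes) and 0 were higher (21.5% of all genes). In this comparison Rpl14 had a log2 fold change of -0.45 ± 0.0941 (adjusted p = 0.00153) and Rps9 of -0.36 ± 0.0799 (adjusted p = 0.00252). With the length trend removed, 1 of 60 members was lower and 6 were higher in microbead than in young nerves at an unadjusted p under 0.05. With all 16 libraries 6 of 59 were lower and 0 higher, so the excess of lower members depended on the fit. The comparisons of saline and of microbead with young nerves share the young or the microbead libraries with those above. The library titles carry a code without a stated meaning. It was 3 in every young, 4 in every saline and 4 or 5 in the microbead libraries, so that here group and code cannot be told apart. Aged replicate 4 had code 4 and the other aged libraries code 3.

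The responses to microbeads and to age were compared in 1 model of the 4 groups. Only Rpl4 differed among the members by the call rule (log2 difference 0.79 ± 0.112, adjusted p = 0.00137, edgeR), with -0.17 in microbead against saline and -0.96 in aged against young nerves. Of all genes tested 4.97% were called in that direction and 2.63% in the other. With all 16 libraries the difference was 0.69 ± 0.181 (adjusted p = 0.0417, with 2.67% of all genes called in that direction and 1.06% in the other).

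Other genes of ribosome production and translation were read beside the members, as counts out of those tested in the 14-library fit. Of all genes tested, 11.4% were called lower and 15.1% higher with age, and 3.06% lower and 9.39% higher with microbeads. With age, 25 of 94 ribosome biogenesis genes fell and 5 rose (median log2 -0.32). Among them Rrp1, a nucleolar protein of large subunit assembly, fell from 263 to 93.2 CPM (log2 -1.496 ± 0.121, adjusted p = 5.96e-08), and Sbds, which releases eIF6 from the new large subunit, from 321 to 168 CPM. Of 15 genes of RNA polymerase I transcription 4 fell and 1, Rrn3, rose. Of 53 translation factors 10 fell and 3 rose, with Eif5b, which joins the subunits, from 113 to 35.9 CPM. Of 31 regulators of translation, ribosome quality control and the TOP messenger RNAs 11 rose and 2 fell, and Tia1, which binds TOP messenger RNAs under stress, rose from 31.5 to 73.4 CPM. Of 74 mitochondrial ribosomal protein genes and of 81 respiratory chain genes 15 each fell and none rose, and 5 each fell with the length trend removed and 3 each with all 16 libraries. The translation factors that fell numbered 7 and 5 in these fits, the biogenesis genes 25 and 19, and the regulators that rose 7 and 8. Of 14 snoRNA host genes 2 rose, and of 7 further ribosomal genes outside the rule or with an older name, which include the member Rps3a, 0 were called. Of the 4 listed paralogs among the counted genes (Rpl3l, Rpl10l, Rpl39l and Rps27l), only Rps27l had enough counts to be tested, and it was not called. The row Rps4y2 was not among these 4.

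With microbeads the same lists held fewer called genes, and the difference from the counts with age was not tested. Of the biogenesis genes 4 fell and 2 rose, of the polymerase I genes 1 fell and Rrn3 again rose, and of the translation factors 1 fell and 4 rose, among them Eif4g2, from 541 to 909 CPM (log2 0.75 ± 0.0906, adjusted p = 1.42e-05). Of the regulators 7 rose, including Rptor, the mTORC1 subunit that recognises its substrates, from 14.4 to 29.6 CPM, and 0 fell. The left-out saline replicate 4 stood near the microbead means, at 913 CPM for Eif4g2, 28.4 for Rptor and 40.5 for Rrn3. For Rrn3 the means were 25.5 CPM in the kept saline and 39.2 CPM in the microbead libraries. Of the mitochondrial ribosomal protein and of the respiratory chain genes 7 each fell, of the snoRNA hosts 1 fell, and of the further ribosomal genes 0 were called. With the length trend removed, 2 mitochondrial ribosomal protein genes fell, and 0 respiratory chain, 0 polymerase I and 0 snoRNA host genes were called. Of the biogenesis genes 2 then fell and 3 rose, of the translation factors 2 fell and 1 rose, and of the regulators 1 fell and 5 rose. That fit called 1.97% of all genes tested lower and 4.61% higher. With all 16 libraries 0 genes of these lists were called, as was the case for all genes.

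Markers of cell types moved with the same contrasts. With age 5 of 10 axonal and ganglion cell genes, 4 of 12 of microglia and macrophages, 4 of 10 of mural cells and 3 of 10 each of astrocytes, meningeal fibroblasts and endothelium were called lower, while 3 mural genes and 1 each of astrocytes, oligodendrocytes, pigment epithelium and blood were called higher. Of 10 oligodendrocyte genes 2 were called lower. The summed fibroblast markers were at 26380 to 32380 CPM in young and 8999 to 17150 CPM in aged libraries, with 43850 CPM in aged replicate 2. In the kept saline libraries they were at 16960 to 32620 CPM and in microbead libraries at 23260 to 34220 CPM. With microbeads 2 of 10 axonal and ganglion cell genes, 2 of 12 of microglia and macrophages and 2 of 10 of pigment epithelium were called lower, as was 1 each of astrocytes, blood, endothelium and meningeal fibroblasts, and 1 each of endothelium, mural cells and oligodendrocytes was called higher. Oligodendrocyte markers summed to 10480 to 12710 CPM in young and 5538 to 7736 CPM in aged libraries. The kept saline libraries had 6531 to 14960 CPM and the microbead libraries 7095 to 12150 CPM, and both ranges overlapped with that of the aged libraries. Photoreceptor markers differed between single libraries from 14.3 to 6857 CPM, pigment epithelium markers from 1404 to 6533 CPM, and muscle markers lay between 33.0 and 80.8 CPM. Rn45s was at 766 to 1979 CPM in young, 4254 to 4874 CPM in aged, 630 to 1637 CPM in saline and 2194 to 3427 CPM in microbead libraries. Lars2 was at 130 to 213 CPM in young and 4196 to 6016 CPM in microbead libraries. The part of cell composition, of Rn45s and of Lars2 in the values of the members was not tested.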

How the data were processed

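Total RNA of 16 pools of optic nerve heads was prepared with the SMARTer Ultra Low Input kit v3, which does not record the strand, and sequenced. The authors aligned the reads to mm10 with STAR 2.3.0 and deposited whole-number counts per gene from featureCounts and each gene's total exon length. The counter's version, annotation and treatment of multiple matches were not stated. The deposited comparison tables hold the authors' fold changes and p-values and were used only to see which libraries they kept. The table held 0 further sample columns.

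Counts were filtered with filterByExpr, normalized with TMM, and edgeR's robust quasi-likelihood fit was applied with edgeR 4.0.16 (R 4.3.3, limma 3.58.1) in 1 model of the 4 groups. Standard errors are the absolute log2 fold change over the root of F. Calls needed fold 1.5, p under 0.01 and adjusted p under 0.05, and p-values were adjusted over all genes. Alternatives were DESeq2 1.42.0, other scalings and filters, all 16 libraries, the replicate block, 1 library code, only the groups compared, no minimum fold, removal of the length trend (loess, span 0.5) and each library left out. Sequence sharing was an exact, sense-strand match of 50 bases (also 36 and 100) in GENCODE M21 transcripts. Each library pooled different mice, so the p-values measure the spread between pools. The code was tested on simulated data. The members, lists and tests were chosen with earlier results of these data known. Named were called members, those highest and lowest per kb, those farthest from the members' median, paralogs with their parents, the stalk genes, Rpsa, Rps6, Rpl5, Rpl11 and Rps27a, up to 4 called genes of each list, Lars2 and Rn45s. Rpl28, Rps20 and the other genes of the sequence and overlap comparisons were named after their values were seen, as were members at an adjusted p under 0.05 outside the call rule. Some members the rule names are not reported here.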

Additional observations from a re-analysis of the deposited data

Results flagged for a closer look

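Aged replicate 2 stood apart from the other 3 aged libraries in the share of counts in ribosomal protein genes (0.367%) and in the levels of Rpl14 (104 CPM), Rps14 (373 CPM), Rpl37 (36.6 CPM) and Rps9 (271 CPM). Saline replicate 1 stood apart from the other saline libraries in the share (0.254%) and in Rpl37 (40.2 CPM). In each case the gap to the nearest library exceeded Dixon's 95% value for 4 samples, which chance passes in about 1 of 20 groups, and 7 of 36 groups examined passed it. The groups are not independent, since the genes come from the same libraries. The log2 fold change of Rpl4 was -0.17 with microbeads and -0.96 with age, and the edgeR test of the difference (0.79) passed the call rule, the fall being larger with age.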

How the results depend on the processing

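With age the 3 calls became 2 with all 16 libraries, 5 with library totals alone (2 higher, 3 lower), 5 with the length trend removed (3 higher, 2 lower), 6 with it removed in all 16 libraries (4 higher, 2 lower, chosen after seeing the data) and 11 without a minimum fold change (3 higher, 8 lower). The members' median of -0.196 became 0.079, -0.00139, 0.124 and 0.135 in the first 4 of these. Library totals alone moved the median of all genes with age to 0.21, and the members' median relative to it was -0.213 against -0.211 in the fit reported. With microbeads the 1 call became 0 with all 16 libraries, library totals alone, the length trend removed in 14 or 16 libraries, only the groups compared and libraries of 1 code, and 4 without a minimum fold change. The median of -0.173 became 0.115 and 0.108 with the length trend removed in 14 and 16 libraries. With the length trend removed in 14 libraries Rps9 changed sign with microbeads (0.008444), as did other members named, among them Rplp0 (0.05), Rplp1 (0.15) and Rpl5 (0.07), and Rpl8 did so with age (0.12). For microbead against young nerves 0 calls became 10 without a minimum fold, and the median of -0.215 became 0.0613 and 0.0719 with the length trend removed. For microbead against aged nerves 1 call became 3 with all 16 libraries (median -0.369 instead of -0.102), 0 with library totals alone, 2 with libraries of 1 code and 4 without a minimum fold. The mean share of counts in the aged group was 0.276% with all 4 libraries and 0.245% with 3. For alternatives without a share of all genes called given above, the counts of members here and below cannot be read as high or low. The cause of these shifts was not tested.

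Leaving out 1 library gave 2 to 3 calls with age (median -0.226 to -0.115), 0 to 3 with microbeads (-0.278 to -0.0286), 0 to 3 for microbead against young (-0.309 to -0.162), 1 to 2 for microbead against aged (-0.164 to -0.0247) and 0 for saline against young (-0.187 to 0.0507). The median with age was -0.115 without young replicate 2 and -0.12 without aged replicate 3, that with microbeads -0.0286 without saline replicate 1 and -0.278 without microbead replicate 1, and that of microbead against aged nerves -0.0247 without aged replicate 1. Without saline replicate 1 or microbead replicate 2 or 4 there were 0 calls with microbeads, without saline replicate 2 there were 3, and without saline replicate 3 or microbead replicate 3 there were 2. For microbead against young nerves there were 3 without microbead replicate 1 and 1 without young replicate 1 or 3, and for microbead against aged nerves 2 without aged replicate 3. Rpl4 with age kept its call under every alternative run, with log2 fold changes from -1.01 to -0.90 when 1 library was left out.

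Replicate numbers are shared between the groups without a stated meaning. Of 18 pairs with the same number, 8 had a correlation of their deviations above 0.1 (range -0.24 to 0.545), so the numbers were not taken to pair samples. With the replicate block there were 4 calls with age, 0 with microbeads and 1 for microbead against aged.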
